A study of Mus musculus with 26 samples.

Results

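The laminin and integrin genes of the mouse were followed across MMTV-PyMT mammary tumors and organoids grown from such tumors. The set holds every gene whose symbol names a laminin alpha, beta or gamma chain or an integrin alpha or beta subunit, which gave 37 of the 37310 genes counted, 11 laminins and 26 integrins. The versioned Ensembl identifiers of the count files were matched to mouse symbols, and no measured value entered the choice. Each member is described by its read count scaled to library size, in CPM, in all 26 libraries.

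All libraries came from C57BL/6 material with the MMTV-PyMT transgene, in which a mouse mammary tumor virus promoter drives the polyoma middle T oncogene mainly in mammary epithelium. The organoids were grown in Matrigel with FGF2 and received 500 nM of Malat1 ASO1, of Malat1 ASO2 or of scASO for 6 days, renewed on day 3, or were labelled Mock, with 4 libraries in each of these 4 groups. Tumors came from mice given subcutaneous injections of Malat1 ASO1 (3 libraries), Malat1 ASO2 (4 libraries) or scASO (3 libraries) at 125 mg/kg per week for several weeks. ASO1 and ASO2 are antisense oligonucleotides against the long noncoding RNA Malat1, and scASO is their control oligonucleotide. Whether the libraries of a group stem from different mice or cultures is not in the labels, so the tests weigh only how these libraries scatter, part of which may be technical.

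Laminins are cross-shaped heterotrimers of an alpha, a beta and a gamma chain that polymerise into the basement membrane under epithelia, muscle and vessels. Integrins are alpha-beta heterodimers in the plasma membrane: the pairs alpha6-beta4, alpha6-beta1, alpha3-beta1 and alpha7-beta1 bind laminins, others bind collagens or RGD-bearing ligands such as fibronectin, and those with beta2 or beta7 serve leukocytes. In the mammary gland the basal, myoepithelial layer touches the basement membrane and carries hemidesmosomes built on alpha6-beta4, which binds laminin-332, a trimer that contains the Lama3 and Lamb3 products. Matrigel is itself a laminin-rich basement membrane extract, so the protein around the organoids is not all their own.

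Start sites of 23 of the 37 members were found in RefSeq's table for build GRCm38.p6, in 26 windows. The 250 bases upstream of the RefSeq start are shown for 5 members on which the results turn. Itga2, the collagen receptor subunit with the largest organoid excess, lies on chr13:114932101-114932350 (minus strand). Lamb3, a chain of laminin-332, lies on chr1:193301744-193301993 (plus strand) at the more upstream of its pair of starts. Itga5, on chr15:103366792-103367041 (minus strand), and Itgav, on chr2:83724147-83724396 (plus strand), are receptor subunits for fibronectin and vitronectin that passed for both ASOs over Mock in organoids with the replicate block only. The bases checked just after the Itga5 start were not found in GENCODE M21 transcripts of the gene, unlike those of the other genes shown. Itgax, on chr7:128129300-128129549 (plus strand), encodes a leukocyte subunit that was low in organoids. Capitals mark the AP-1 motif TGANTCA and the GC box GGGCGG, both searched on both strands.
Itga2: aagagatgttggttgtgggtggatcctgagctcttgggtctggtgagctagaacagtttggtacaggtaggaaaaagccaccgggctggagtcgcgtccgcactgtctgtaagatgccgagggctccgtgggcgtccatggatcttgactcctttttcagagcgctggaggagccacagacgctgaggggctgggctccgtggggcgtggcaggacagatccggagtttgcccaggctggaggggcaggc
Lamb3: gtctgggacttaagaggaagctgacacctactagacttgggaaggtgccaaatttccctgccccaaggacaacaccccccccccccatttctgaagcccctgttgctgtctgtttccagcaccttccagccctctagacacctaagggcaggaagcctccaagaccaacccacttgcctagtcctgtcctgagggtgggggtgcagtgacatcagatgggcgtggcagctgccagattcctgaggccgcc
Itga5: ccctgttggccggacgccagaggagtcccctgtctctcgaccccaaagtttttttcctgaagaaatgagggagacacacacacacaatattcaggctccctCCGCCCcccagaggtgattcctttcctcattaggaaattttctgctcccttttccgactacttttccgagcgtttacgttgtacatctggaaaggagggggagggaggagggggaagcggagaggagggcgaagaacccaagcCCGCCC
Itgav: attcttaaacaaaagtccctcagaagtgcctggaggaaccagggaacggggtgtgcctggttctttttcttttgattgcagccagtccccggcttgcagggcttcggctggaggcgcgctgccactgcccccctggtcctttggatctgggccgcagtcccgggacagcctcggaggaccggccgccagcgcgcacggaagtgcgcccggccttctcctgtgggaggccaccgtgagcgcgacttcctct
Itgax: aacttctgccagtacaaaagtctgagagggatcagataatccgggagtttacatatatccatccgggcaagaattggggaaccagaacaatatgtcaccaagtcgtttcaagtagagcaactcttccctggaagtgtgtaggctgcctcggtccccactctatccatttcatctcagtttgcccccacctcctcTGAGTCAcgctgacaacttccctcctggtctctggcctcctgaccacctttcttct
The AP-1 letters occurred in 1 of the 26 member windows, that of Itgax, and in 6.75% of all 32851 windows in the table. The GC box occurred in 9 of the 26 member windows, among them those of Itga5, Lamb1 and Itga3, and in 32.7% of all windows. A match describes these letters only.

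Between 23973533 and 65146030 reads were assigned to genes in organoids and between 9939520 and 51363552 in tumors. Malat1, the targeted transcript, had 86.96 to 186.1 CPM in organoids with ASO1 and 95.63 to 307.2 CPM in 3 of the 4 libraries with ASO2, against 781.3 to 1191 CPM in 3 of the 4 with scASO and 713.1 to 1578 CPM in Mock. The library labelled ASO2 replicate 1 had 1485 CPM and the library labelled scASO replicate 2 had 118.7 CPM, so both go against their labels, and the main organoid results are given with and without them. In tumors Malat1 had 401.4 to 824.1 CPM with ASO1 and 380.9 to 913.3 CPM with ASO2, against 847 to 1914 CPM with scASO, and the ASO2 and scASO ranges overlapped. Organoid libraries with the same replicate number deviated together from their group means, so the fits that treat the number as a block are given beside those without it where they change a count of calls.

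**Figure D1:**
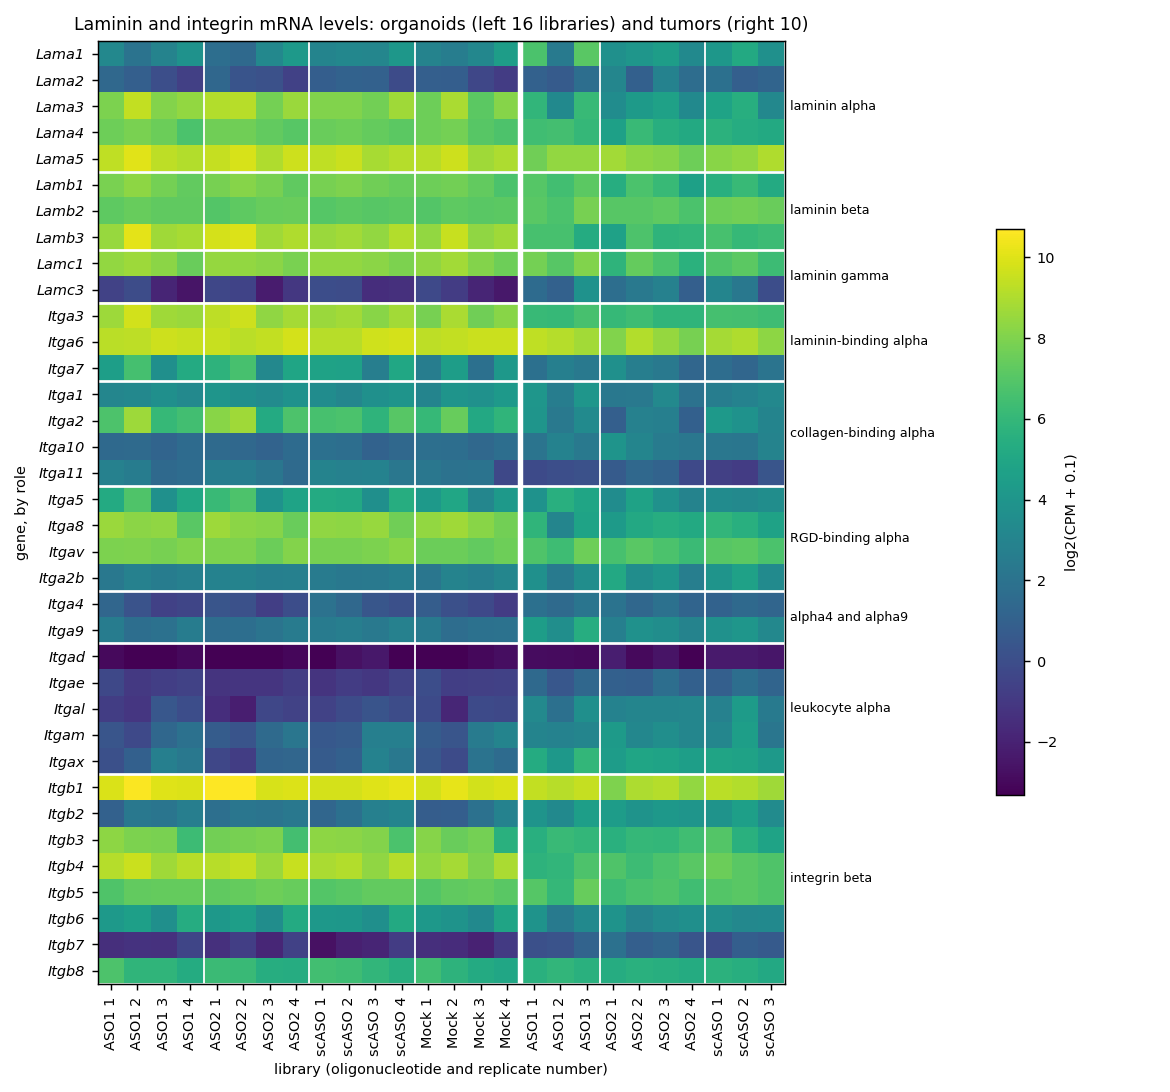
Heat map of log2(CPM + 0.1) for 36 laminin and integrin genes (rows, grouped by role) in the 26 libraries (columns), organoids on the left and tumors on the right. Itgb1 and Itga6 are bright throughout, Lama3 and Lamb3 are brighter in organoids, and the leukocyte alpha subunits are brighter in tumors.

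The order of abundance within the set was read per kilobase of exon, the only scale here on which genes were ranked against each other. Exon lengths came from GENCODE M21, while the submitters' notes name build mm9 for the counts, so the order is approximate. Itgb1, the beta subunit shared by most receptors for laminin and collagen, led in both systems, with a median of 242 CPM per kb in organoids and 133.6 CPM per kb in tumors. Among the most abundant after it in organoids were Itga6 (78.05 CPM per kb), Itgb4 (72.92), Itga3 (71.54) and Lamb3 (63.94), subunits of laminin receptors and a laminin-332 chain. The library ranges of these 4 genes overlapped, so their order among themselves does not exceed the spread. Behind Itgb1 in tumors stood Itga6 (48.48 CPM per kb), Itgb5 (32), Lama5 (29.14) and Lamb2 (23.13), and neighbours in this order overlapped as well. Lama5 led the laminin alpha chains in organoids at 56.15 CPM per kb, against 25.61 CPM per kb for Lama3. At the low end, Itgad, a leukocyte alpha subunit, had 0 to 2 reads in every organoid library and 0 to 4 in every tumor and failed the filter on low counts, which the other 36 members passed.

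The comparison of organoids with tumors asked how the set differed between cells in Matrigel and whole tumor tissue, averaging ASO1, ASO2 and scASO equally on each side. Mock does not enter these fold changes, while the CPM ranges given for organoids include it. Organoids had more mRNA of Lama3 and Lamb3, of the receptor subunits Itga2, Itga3, Itga7, Itga8 and Itgb4 and, by a smaller factor, of Itga6, and less of the leukocyte integrins and of Lama1, Lama2 and Lamc3. In edgeR's quasi-likelihood test, with p-values adjusted over all genes after Benjamini and Hochberg, 35 of the 36 tested members passed, 22 higher and 13 lower in organoids. Without the 2 organoid libraries that go against their labels 34 passed, 21 higher and 13 lower, against 10109 of 18632 genes. In the same test 58.3% of all 18695 genes passed, 28.5% higher and 29.8% lower, so calls are common here. This test treated organoid libraries with the same replicate number as independent, though they deviated together, so its p-values may be too small. The median log2 fold change was 0.87 over the members and -0.02 over all genes tested. Bulk RNA cannot tell fewer cells of a type apart from less RNA per cell.

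Among the laminin chains, Lama3 had 143, 275.2 and 680.8 CPM as the lowest, median and highest of 16 organoid libraries, against 9.164, 22.71 and 70.08 CPM in the 10 tumors. Its partner Lamb3 had 327.9, 422.8 and 1098 CPM in organoids, against 26.15, 72.91 and 109.2 CPM in tumors. For both chains every organoid library stood above every tumor. The same held for 9 members in all, against 4.45% of genes with a symbol and at least 15 reads, and 7 members stood below every tumor, against 4.77%. The fold differences were 13-fold for Lama3 (log2 3.70 ± 0.37, SE; edgeR adjusted p = 4.31e-08) and 7.61-fold for Lamb3 (2.93 ± 0.27; adjusted p = 1.78e-08). Several other chains rose as well: Lama4, a chain typical of vessels and mesenchyme, by 1.72, Lamb1 by 1.63, Lamc1 by 1.26 and Lama5, the broad epithelial alpha chain, by 1.06 on the log2 scale. Lamb2, a beta chain that can take the place of beta1, was the member that missed the threshold, at 121.5 to 181.3 CPM in organoids and 105.1 to 229 CPM in tumors (log2 -0.09 ± 0.10; adjusted p = 0.489).

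Lamc3, Lama1 and Lama2 were lower in organoids. Lamc3, a gamma chain with a restricted distribution, had 0.07454 to 0.884 CPM in organoids, against 0.8894 to 14.16 CPM in tumors, and the ranges met without overlapping (log2 -3.40 ± 0.51; edgeR adjusted p = 8.95e-06). Lamc3 shares 382 exon bases with Gm13441 on the other strand, and reads of the pair cannot be told apart where the strand used in counting is not stated. Lama1, the alpha chain of laminin-111, had 2.66 to 21.93 CPM in organoids, against 5.166 to 139.8 CPM in tumors (log2 -1.73 ± 0.42; adjusted p = 0.0013). The highest tumors were ASO1 replicate 3 with 139.8 CPM and ASO1 replicate 1 with 105.4 CPM, and no other tumor passed 36.18 CPM. In the same 2 tumors the summed basal and myoepithelial markers stood at 3146 and 1978 CPM, against 314.1 to 1203 CPM in the other 8, and the part of those cells in the Lama1 values was not tested. Lama2, the alpha chain of muscle and mesenchyme, differed by a log2 fold change of -1.07 ± 0.34 (adjusted p = 0.0101).

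All 3 laminin-binding alpha subunits rose in organoids. Itga3 had 204.7, 408.5 and 840.4 CPM in organoids, against 57.07, 75.5 and 98.57 CPM in tumors, with no overlap (log2 2.62 ± 0.19; edgeR adjusted p = 8.02e-10). Itga7, best known from muscle, had 3.551, 24.78 and 97.49 CPM in organoids, against 2.343, 4.541 and 12.92 CPM in tumors, and overlapped (2.91 ± 0.46; adjusted p = 1.67e-05). Itga6 was abundant on both sides, with 579.4 to 886.4 CPM in organoids and 229.5 to 643.5 CPM in tumors, and its log2 fold change of 0.71 ± 0.14 (adjusted p = 0.000189) was the smallest of the 3. Itgb4, which pairs only with alpha6, had 249.9, 511.5 and 747.1 CPM in organoids, against 53.29, 113 and 184.3 CPM in tumors. The ranges did not overlap, and the log2 fold change was 2.37 ± 0.18 (5.18-fold; adjusted p = 9.43e-10). The fold changes of Itgb4 and its only partner Itga6 were not tested against each other.

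**Figure D2:**
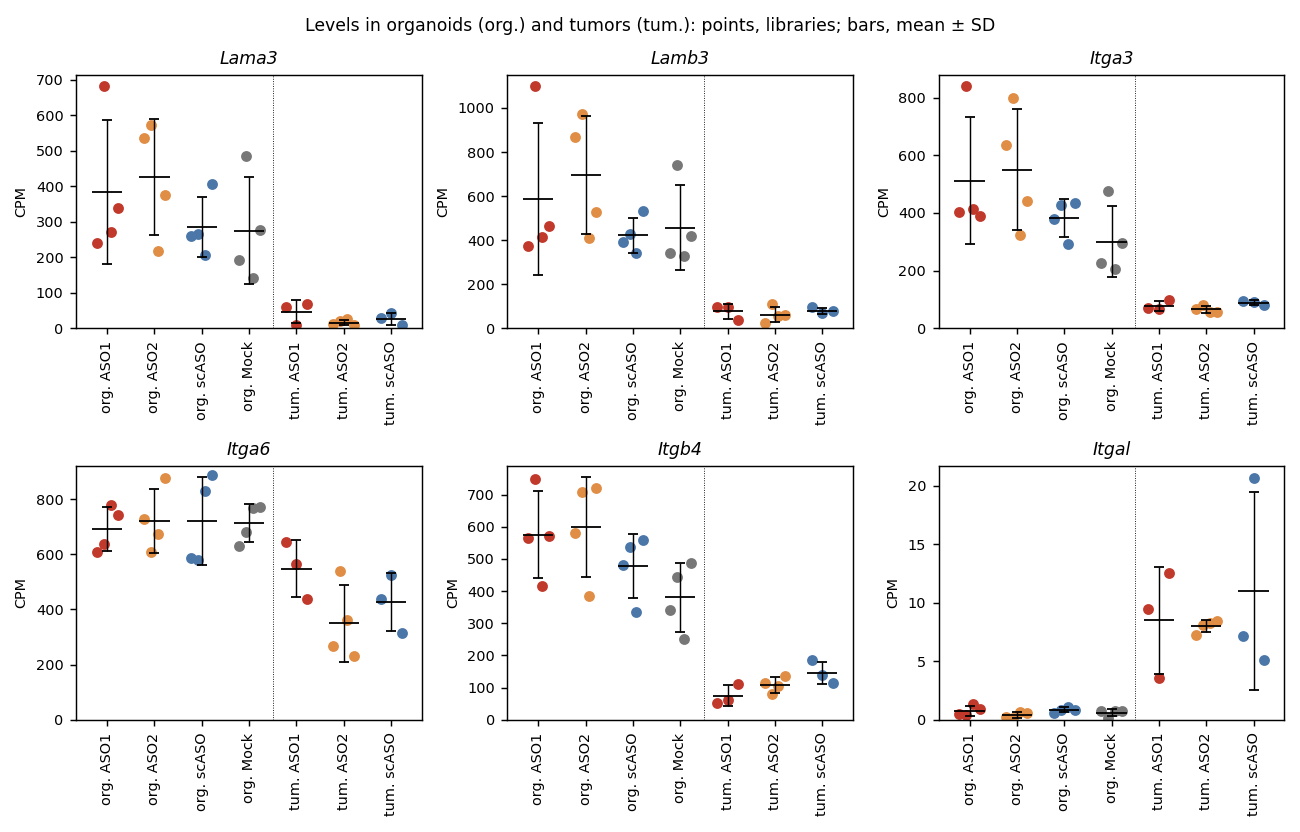
CPM of Lama3, Lamb3, Itga3, Itga6, Itgb4 and Itgal in each library of the 4 organoid groups (left of the dotted line) and the 3 tumor groups, with the mean and SD. Organoids stand above all tumors for Lama3, Lamb3, Itga3 and Itgb4, overlap them for Itga6 and stand below them for Itgal.

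Of the collagen-binding alpha subunits, Itga2 showed the largest difference of the set. It had 35.46, 101 and 415.9 CPM in organoids, against 1.799, 7.532 and 18.25 CPM in tumors, without overlap (log2 4.16 ± 0.48, 17.9-fold; edgeR adjusted p = 2.90e-07). Itga11, a receptor of fibroblasts and mesenchyme, rose by 2.33 and Itga1 by 0.48 on the log2 scale, whereas Itga10 fell by 1.24. Among RGD-binding subunits, Itga8, the receptor subunit for nephronectin, had 138.7, 312.1 and 412.9 CPM in organoids, against 8.335, 35.34 and 60.73 CPM in tumors. The groups did not overlap (log2 3.03 ± 0.28; adjusted p = 1.73e-08). Itga8 shares 372 exon bases with E030013I19Rik on the other strand. Itga5 rose 2.63-fold and Itgav 2.03-fold, and the platelet subunit Itga2b fell by 1.22 on the log2 scale. The beta subunits Itgb3, Itgb1, Itgb6, Itgb5 and Itgb8 rose by 1.79, 1.12, 1.09, 0.48 and 0.47 on that scale. Of these, Itgb1 had no overlap, with 852.1 to 1654 CPM in organoids and 255.6 to 715.6 CPM in tumors.

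**Figure D3:**
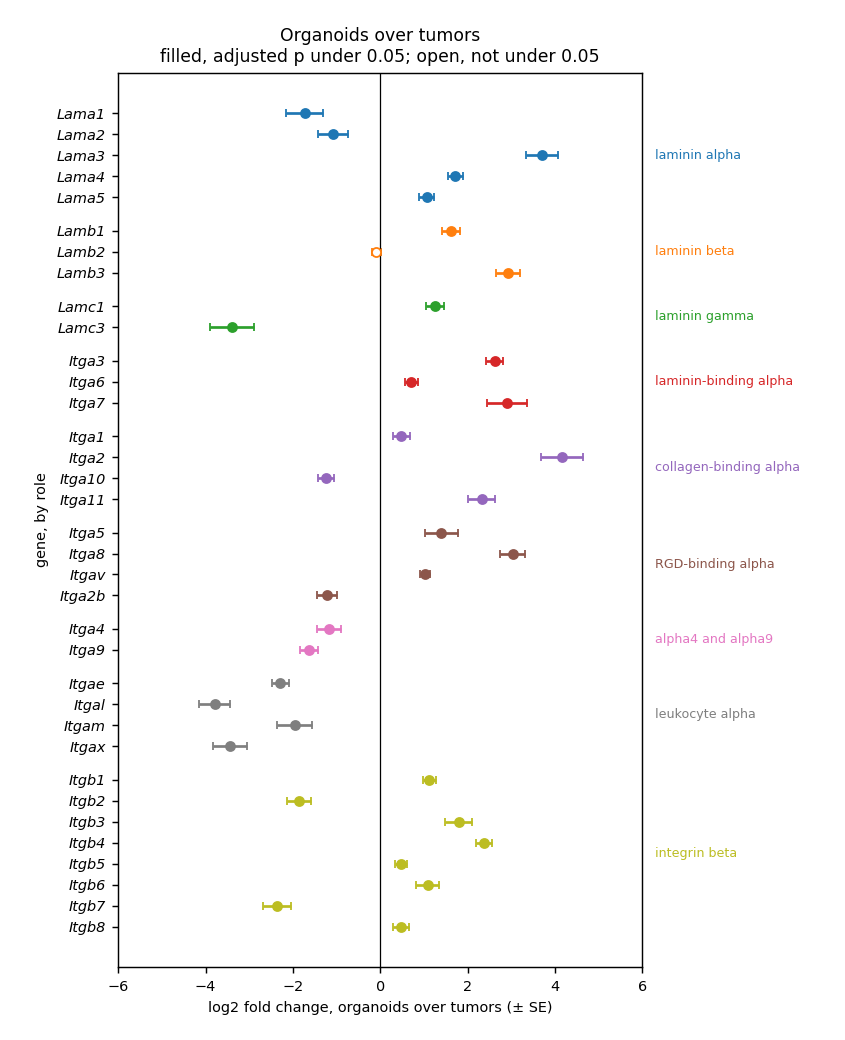
Log2 fold change of organoids over tumors with its standard error for 35 of the 36 tested members, grouped by role. The laminin-binding alpha subunits all lie right of 0, the leukocyte alpha subunits and alpha4 and alpha9 all lie left of it, and Lamb2 is the open symbol near 0.

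The 4 tested leukocyte alpha subunits, both alpha4 and alpha9, and the leukocyte beta subunits Itgb2 and Itgb7 fell in organoids. Itgal, the alpha chain of LFA-1, had 0.1267, 0.7006 and 1.323 CPM in organoids, against 3.53, 8.176 and 20.68 CPM in tumors (log2 -3.79 ± 0.35, 13.9-fold lower; edgeR adjusted p = 1.23e-08). Itgax, the CD11c subunit of dendritic cells and macrophages, had 0.475, 2.026 and 7.31 CPM in organoids, against 17.53, 27.31 and 61.15 CPM in tumors (-3.43 ± 0.39; adjusted p = 2.26e-07). Neither gene overlapped between the systems. Itgb7, Itgae, which pairs with it in mucosal T cells, Itgam, the CD11b subunit, and Itgb2 fell by 2.36, 2.29, 1.96 and 1.87, and Itga9 and Itga4 by 1.63 and 1.17. Itga4 shares 1124 exon bases with Cerkl on the other strand, and without a stated strand in the counting their reads cannot be told apart.

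Markers of other cell types moved with these differences. Of the 5 macrophage and myeloid markers, Ptprc, Csf1r and Adgre1 fell, Cd14 rose and Cd68 did not pass, and their summed level was 136.8 to 537.1 CPM in organoids and 191 to 346.8 CPM in tumors, most of it Cd14. Ptprc, the pan-leukocyte CD45 gene, had 0.2216 to 4.656 CPM in organoids, against 12.64 to 45.14 CPM in tumors. All 4 T cell markers fell, their sum was 0.1336 to 1.175 CPM in organoids and 2.652 to 15.17 CPM in tumors, and Cd8a was at 0 in all 16 organoid libraries. All 5 endothelial markers fell (sum 4.363 to 25.31 CPM in organoids, 20.52 to 91.23 CPM in tumors), as did 4 of 6 fibroblast markers (sum 49.06 to 295.2 CPM in organoids, 242.3 to 2336 CPM in tumors). Of the basal and myoepithelial markers, Krt5, Krt14 and Trp63 rose and Myh11 and Oxtr fell, and their sum was 1692 to 7813 CPM in organoids and 314.1 to 3146 CPM in tumors. The luminal sum was 4593 to 9135 CPM in organoids and 2384 to 4472 CPM in tumors, and 4 of 5 luminal markers rose. Of 3 pericyte markers Rgs5 fell (log2 -4.06; edgeR adjusted p = 1.97e-07) and the other two did not pass, with sums of 3.934 to 35.02 CPM in organoids and 19.3 to 65.38 CPM in tumors. Of 3 platelet markers only Pf4 could be tested, and it fell as Itga2b did (log2 -1.85; adjusted p = 0.0028), with sums of 0.2464 to 5.733 CPM in organoids and 0.6265 to 5.772 CPM in tumors. Of 5 skeletal muscle markers Ckm, Tnnt3 and Myh4 fell (sum 2.929 to 23.93 CPM in organoids, 1.542 to 1705 CPM in tumors), and of 5 adipocyte markers Adipoq, Lep and Cidec fell (sum 1.282 to 71.19 CPM in organoids, 3.906 to 481.6 CPM in tumors). The part of these cell types in the differences of laminins and integrins was not tested.

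Genes that work with the set were read in the same test, in which 58.3% of all genes passed. Of 27 basement membrane and matrix partners, 11 rose and 5 fell in organoids, a share near that of all genes. Tnc, the matrix glycoprotein tenascin-C, rose by 5.70, Col18a1 by 4.31 and Fn1, fibronectin, by 4.45 on the log2 scale, and Dag1, the laminin receptor dystroglycan, by 2.55, whereas Vtn, vitronectin, fell by 4.24 and Ntn4, a netrin that binds laminin, by 2.57. The collagen IV chains Col4a1 and Col4a2, which form the most widespread basement membrane network and are named here after their values were seen, did not pass (log2 -0.30 and -0.06). Of 29 genes of the adhesion machinery inside the cell, 17 rose and 5 fell, against 28.5% and 29.8% of all genes. Actn1, Plec, which ties beta4 to keratin filaments, the epithelial kindlin Fermt1 and the actin linker Vcl rose by 1.91, 1.89, 2.81 and 2.21, while the leukocyte kindlin Fermt3 fell by 2.58 and Parvg, a leukocyte parvin, by 3.93 and Tns1, tensin 1, by 2.36 on the log2 scale.

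Within organoids, the 3 oligonucleotides were set against Mock. Without the replicate block no member passed by edgeR's quasi-likelihood test, for both ASOs or for scASO, and 5 and 3 members had an unadjusted p below 0.05, with 0% of 17126 genes called in either comparison. DESeq2 called 0 members in both. Here and below, counts at an unadjusted p have no share of all genes at that threshold beside them and so lack a baseline. With the block, 7 of 36 members passed for both ASOs over Mock, 6 higher and 1 lower, against 4.31% of all genes, 3.08% higher and 1.23% lower. Those that rose were receptors and 1 laminin chain: Itgb4, Itga3 and Itga7 of the laminin receptors, Itga5 and Itgav of the RGD receptors, and Lamb1. The one that fell was Itgam. Both comparisons use the same Mock libraries, so they are not independent of each other.

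Itgb4 had 565, 747.1, 415.8 and 572.2 CPM in ASO1 organoids numbered 1 to 4 and 579.5, 706.8, 385.4 and 721.3 CPM in ASO2 organoids, against 341.8, 443.6, 249.9 and 486.9 CPM in Mock. Each ASO library stood above the Mock library of its number, while the groups overlapped (log2 0.62 ± 0.08 with the block; edgeR adjusted p = 0.0029). Itga7 had 23.35, 95.23, 12.36 and 38.04 CPM with ASO1 and 53.5, 97.49, 9.311 and 30.04 CPM with ASO2, against 6.037, 21.9, 3.551 and 17.49 CPM in Mock. Its difference was the largest of the 7, 3.48-fold (log2 1.80 ± 0.32; adjusted p = 0.0084). Itga3 had 402, 840.4, 414.9 and 390 CPM with ASO1 and 635.7, 797.8, 324.3 and 440 CPM with ASO2, against 227.6, 476, 204.7 and 296.4 CPM in Mock (0.81 ± 0.16; adjusted p = 0.0156). As with Itgb4, all 8 ASO libraries were above the Mock library of their number. The 8 include the library labelled ASO2 replicate 1, which goes against its label.

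Itga5 had 37.94, 112.1, 12.87 and 33.52 CPM with ASO1 and 71.23, 107.8, 13.95 and 27.6 CPM with ASO2, against 18.19, 30.7, 8.574 and 18.71 CPM in Mock (2.304-fold with the block, with a SE of 0.28 on the log2 scale; edgeR adjusted p = 0.0307). Itgav had 247.5, 251.1, 226.8 and 264.1 CPM with ASO1 and 242.3, 249.6, 188 and 270.2 CPM with ASO2, against 185.1, 185.1, 161.1 and 190.5 CPM in Mock (0.41 ± 0.08; adjusted p = 0.0100). The Itgav rise was small but even across numbers. Itgav shares 634 exon bases with Gm13684 on the other strand. Lamb1, the beta chain of laminins 111, 411 and 511, had 232.4, 319.8, 219 and 159 CPM with ASO1 and 223.9, 279.1, 222.4 and 156.6 CPM with ASO2, against 195.9, 209.4, 163.1 and 107.3 CPM in Mock (0.41 ± 0.07; adjusted p = 0.0083). Itgam had 1.205, 0.7395, 2.504 and 3.702 CPM with ASO1 and 1.581, 1.14, 2.732 and 4.367 CPM with ASO2, against 1.603, 1.188, 5.682 and 7.993 CPM in Mock (-0.73 ± 0.18; adjusted p = 0.0429), the widest gaps being in numbers 3 and 4.

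Several of these genes were also above Mock with the control oligonucleotide. The scASO organoids numbered 1 to 4 had 221.6, 222.8, 241.1 and 290.2 CPM of Itgav, all above Mock, and Itgav was the 1 member that passed for scASO over Mock with the block (log2 0.43 ± 0.09; edgeR adjusted p = 0.0466), against 0.747% of all genes, 0.549% higher. For Itgb4 the scASO libraries had 479.7, 536.1, 335.5 and 557.8 CPM and the difference was 0.34 ± 0.09 (adjusted p = 0.118). For Itga7 they had 26.63, 26.21, 6.309 and 31.99 CPM and the difference was 1.03 ± 0.35 (adjusted p = 0.189). Lamb1, Itga7, Itga5, Itgav, Itgb4 and Itgb6 were above the Mock library of the same number in all 12 oligonucleotide libraries, a pattern seen in 2.59% of genes with a symbol and at least 15 reads. Among the members above in 11 of 12 were Lama3, Lamb3 and Itga2, and the exception for each was the library labelled scASO replicate 2. Lama5, Itga3 and Itgb1 also stood at 11 of 12, with a scASO library as the exception. For Itga11 the exception was an ASO1 library, and for Itgb3 and Itgb8 it was an ASO2 library. The share of all genes at 11 of 12 is not given here.

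Leaving out the 2 libraries that go against their labels raised the counts under the block. For both ASOs over Mock 13 members then passed, against 9.86% of all genes: among those added to the 7 above were Lama3, Lama5, Lamb3, Itga2 and Itgb6, all higher. Lama3 rose by 0.44 ± 0.09 and Lamb3 by 0.29 ± 0.08 on the log2 scale (edgeR adjusted p = 0.0131 and 0.0411). For scASO over Mock 7 members passed, against 1.78% of all genes, all higher, among them Lamb1, Itga3, Itga7, Itga2, Itga5 and Itgav. Without the 4 libraries numbered 4, Lamb1, Itga3, Itga7 and Itgb4 passed for both ASOs, against 1.39% of all genes, and 0 members for scASO, against 0.0237%; 10 members had an unadjusted p below 0.05 for scASO. When each organoid library was left out in turn under the block, 5 to 8 members passed for both ASOs, against 1.48% to 5.07% of all genes. For scASO 0 to 3 members passed, against 0.0288% to 1.48% of all genes. Lamb1, Itga7, Itgav and Itgb4 passed for both ASOs in all 16 fits. For scASO Itgav passed only in the fits without ASO2 replicate 1, 3 or 4 or without scASO replicate 2. No member passed for scASO in the other fits.

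**Figure D4:**
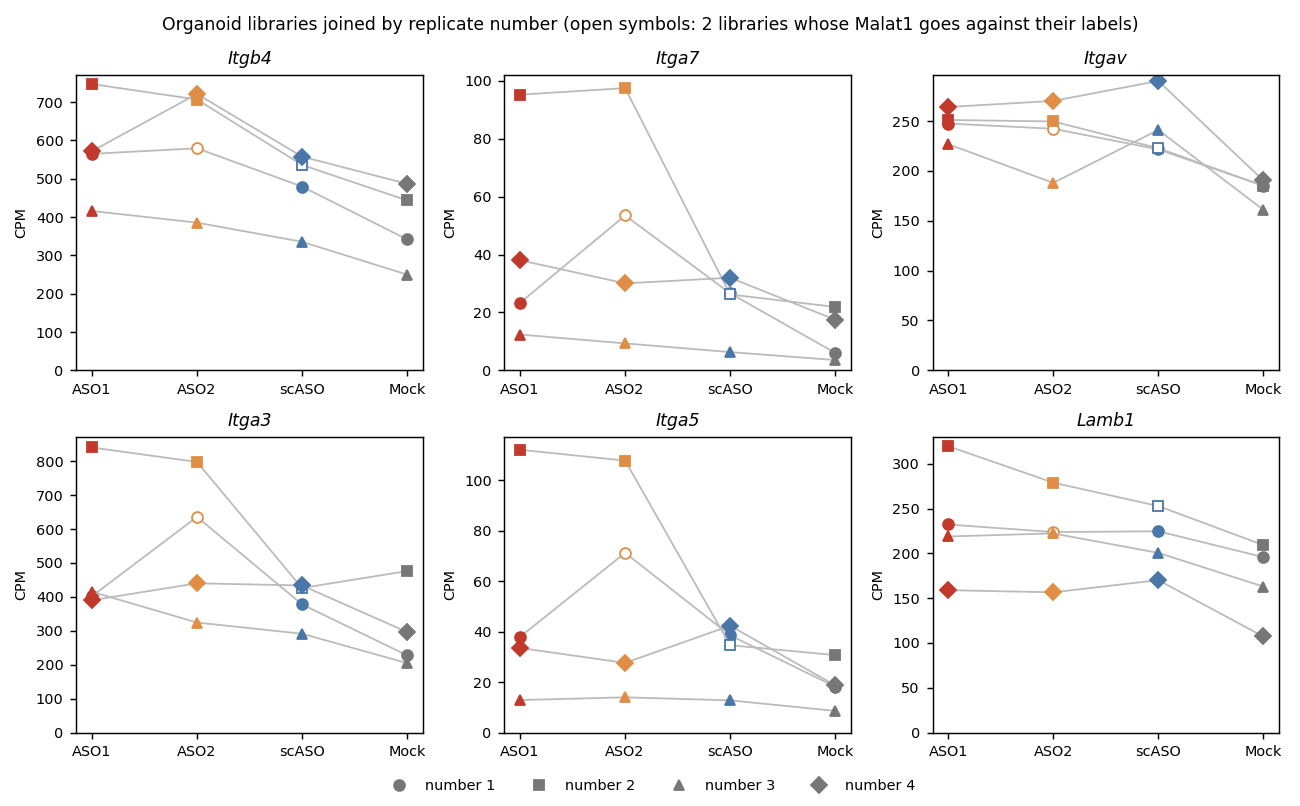
CPM of Itgb4, Itga7, Itgav, Itga3, Itga5 and Lamb1 in the 16 organoid libraries, by treatment, with lines joining libraries of the same replicate number. Mock is the lowest point of every line except number 2 of Itga3, and the open symbols mark the libraries labelled ASO2 replicate 1 and scASO replicate 2.

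Some partners of the set also rose over Mock. With the block, where 3.08% of all genes were higher, 7 of 26 tested basement membrane and matrix partners rose with both ASOs and the other 19 did not pass. Among the 7 were Col17a1, the hemidesmosomal collagen (log2 0.52 ± 0.08; edgeR adjusted p = 0.0043), Fn1 (1.07 ± 0.17; adjusted p = 0.0049), Col18a1 (0.76 ± 0.13; adjusted p = 0.0071) and Tnc (1.57 ± 0.29; adjusted p = 0.0103). In the same fit 9 of 29 genes of the adhesion machinery rose and 20 did not pass. Among the 9 were Parvb (2.14 ± 0.26), Actn1 (0.48 ± 0.10), Plec (0.47 ± 0.11) and Cd151, the tetraspanin partner of laminin-binding integrins (0.33 ± 0.07). The basal keratins Krt14 and Krt5 rose by 0.80 ± 0.12 and 0.75 ± 0.12 in the same fit, while Ptprc and Adgre1 fell by 1.28 ± 0.20 and 0.98 ± 0.24. Other markers of these lists went either way, here read without the block, where none passed. On the log2 scale the basal markers Myh11, Trp63, Acta2 and Oxtr differed by 0.34, 0.24, 0.14 and -0.75. The myeloid markers Cd68, Cd14 and Csf1r differed by 1.04, 0.38 and -0.69. The summed basal and myoepithelial markers were 2548 to 7813 CPM in ASO organoids and 1692 to 4338 CPM in Mock. The part of basal and myeloid cells in the changes of integrins was not tested.

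Organoid libraries also differed by replicate number, whose meaning the labels do not give. With number tested beside treatment, 32 of 36 members passed by edgeR's quasi-likelihood test, against 81% of all genes. Itgb6, the epithelial partner of alphav that activates TGF-beta, had 28.5 to 40.2 CPM in the 4 libraries numbered 4, against 10.04 to 24.38 CPM in the other 12 (adjusted p = 2.40e-07). Itgb3 ran the other way, with 46.83 to 106.3 CPM in number 4 and 179.6 to 318.6 CPM in the others (adjusted p = 2.59e-06), and it missed the threshold without number 4 (adjusted p = 0.175). Itgam had 2.504 to 7.993 CPM in numbers 3 and 4 and 0.7395 to 1.603 CPM in numbers 1 and 2 (adjusted p = 1.39e-06). Itgax divided the numbers the same way, with 2.175 to 7.31 CPM and 0.475 to 1.877 CPM (adjusted p = 1.85e-06). Itgb4 (adjusted p = 1.77e-05), Itgb8 (1.85e-05), Lamb1 (2.20e-05) and Itga7 (0.000106) also passed, and Itga1, Itga2b, Itgae and Itgb1 did not. Without the 2 libraries that go against their labels 34 of 36 members passed, against 15311 of 17325 genes, and Lamb2 and Itgae did not.

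Lamb3 and Itga2 set 4 organoid libraries apart, both named for this after their values were seen. Lamb3 had 1098, 972.9 and 742.5 CPM in the libraries numbered 2 of ASO1, ASO2 and Mock, and 868.3 CPM in the library labelled ASO2 replicate 1. Every other organoid library had 327.9 to 530.8 CPM, including the library labelled scASO replicate 2 with 427.8 CPM. Itga2 had 402.6, 415.9 and 175.5 CPM in those 3 libraries and 294.4 CPM in the library labelled ASO2 replicate 1, against 35.46 to 132.4 CPM in the rest. For both genes the library labelled ASO2 replicate 1 thus stood near the libraries numbered 2, and the library labelled scASO replicate 2 stood apart from the libraries of its own number.

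Malat1 ASOs against scASO gave no called member in either system. On simulated counts the fit of both ASOs over scASO, without the block, recovered 29 of 100 genes changed 2-fold in tumors and 32 of 100 in organoids. Of 100 genes changed 4-fold it recovered 79 in tumors and 85 in organoids. A member without a call may therefore still have changed. The changed genes were drawn from those averaging above 1 CPM, and same-numbered libraries were given no shared deviation. These rates may therefore not hold for members at lower levels or for organoids that deviate together. In tumors 0 of 36 members passed by edgeR's quasi-likelihood test for ASO1, ASO2 or both together, where 0.00576%, 0% and 0% of the 17354 genes passed, and 5, 4 and 2 members had an unadjusted p below 0.05. DESeq2 called 0 members in each of the 3. The smallest unadjusted p for both ASOs belonged to Itgb4, which had 53.29, 60.19 and 111.3 CPM with ASO1 and 114.6, 78.64, 104.1 and 135.7 CPM with ASO2, against 184.3, 137.7 and 115.6 CPM with scASO. Of the 7 ASO tumors 6 lay below all scASO tumors (log2 -0.68 ± 0.26; adjusted p = 0.827). Itga5 had 13.97, 45.67 and 29.96 CPM with ASO1 and 11.18, 27.33, 13.73 and 7.59 CPM with ASO2, against 10.76, 9.45 and 11.6 CPM with scASO, with overlap for ASO2 (1.01 ± 0.43; adjusted p = 0.827). Itga2 had 5.011 to 15.51 CPM with ASO1 and 1.799 to 7.177 CPM with ASO2, against 7.888 to 18.25 CPM with scASO, without overlap for ASO2 (-0.99 ± 0.50; adjusted p = 0.827).

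With a single ASO the smallest p-values belonged to other members as well. For ASO1 over scASO these were Itga5 (log2 1.51 ± 0.49), Itgb4 (-0.94 ± 0.31) and Lama4 (0.91 ± 0.33), each with an edgeR adjusted p of 0.535. In that comparison the endothelial markers Cldn5, Pecam1, Cdh5, Kdr and Tek had log2 fold changes of 1.16, 0.97, 0.88, 0.53 and -0.03. The luminal markers Cdh1, Epcam, Krt18, Krt8 and Krt19 had -0.52, -0.51, -0.34, -0.16 and 0.29. None of them passed, and the part of these cell types in the ASO1 values was not tested. For ASO2 over scASO the smallest p-values belonged to Itga2 (-1.61 ± 0.57), Itga11 (1.29 ± 0.50) and Lamb2 (-0.58 ± 0.25), each with an adjusted p of 0.886. Itga11 had 1.51, 2.612, 2.102 and 0.7496 CPM in ASO2 tumors, against 0.5418, 0.4699 and 1.199 CPM in scASO tumors, which overlap. The 6 fibroblast markers summed to 2336, 367.9, 1161 and 484.6 CPM in the same ASO2 tumors, against 384.7, 349.3 and 537.5 CPM with scASO. The 5 adipocyte markers summed to 481.6, 7.616, 212.8 and 127.5 CPM with ASO2, against 5.221, 4.281 and 3.906 CPM with scASO, so every ASO2 tumor was above every scASO tumor. None of these 11 markers passed (Plin1 had the smallest unadjusted p among them, with an edgeR adjusted p of 0.886), and the part of these cell types in the ASO2 values was not tested. Lama1 had 105.4, 5.166 and 139.8 CPM in ASO1 tumors, 12.82, 16.64, 22.04 and 9.933 CPM in ASO2 tumors and 17.26, 36.18 and 13.11 CPM in scASO tumors, so ASO1 replicate 2 stood below every other tumor. The tumor labelled ASO2 replicate 1 held 1705 CPM of skeletal muscle markers, against 1.542 to 58.19 CPM in the other 9, and its Itga7, a muscle laminin receptor, was the highest tumor value at 12.92 CPM. The part of muscle in that value was not tested.

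**Figure D5:**
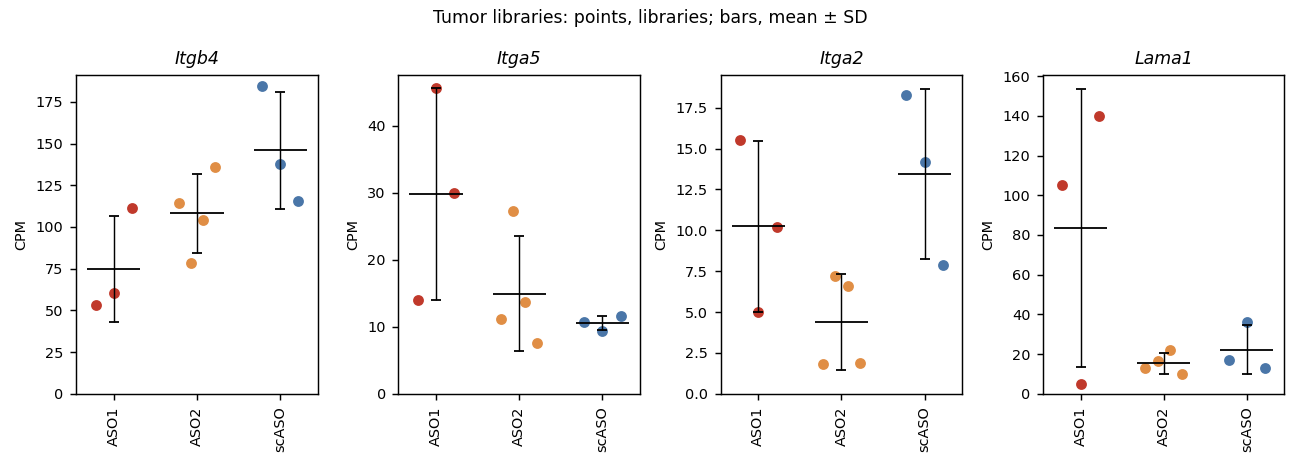
CPM of Itgb4, Itga5, Itga2 and Lama1 in the tumor libraries of ASO1, ASO2 and scASO, with the mean and SD. ASO1 lies below scASO for Itgb4 and above it for Itga5, ASO2 lies below scASO for Itga2, and the remaining ASO groups overlap scASO.

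In organoids 0 of 36 members passed for ASO1, ASO2 or both ASOs over scASO, with or without the block, where 0% of 17126 genes passed. The share of all genes at an unadjusted p below 0.05 is not given here, so the member counts at that threshold have no baseline. Without the block 0, 1 and 1 members had an unadjusted p below 0.05 by edgeR, with the block 4, 14 and 14, and DESeq2 called 0 members in each. The 3 smallest for both ASOs were Itga4 (log2 -1.06 ± 0.44), Itga9 (-0.47 ± 0.24) and Lamb3 (0.58 ± 0.33), each with an edgeR adjusted p of 1.00 when rounded. Itga4, the alpha chain of VLA-4, had 2.327, 1.081, 0.5644 and 0.6709 CPM with ASO1 and 1.186, 1.013, 0.504 and 0.9041 CPM with ASO2, against 3.729, 2.555, 1.262 and 0.9531 CPM with scASO, so each ASO library was below the scASO library of its number. Both libraries that go against their labels are among these. In number 4 the gap to ASO2 was narrow, few reads lie behind such values, and the share of all genes with this pattern is not given here. The single-ASO lists added Itgb7 (0.94 ± 0.59) and Lamb2 (0.18 ± 0.13) for ASO1 and Itgax (-1.44 ± 0.75) for ASO2. Leaving out the 2 libraries against their labels, with the block, still called 0 members, against 0.00577% of genes for ASO1, 0.0173% for ASO2 and 0.0231% for both ASOs, with Malat1 among the genes that passed in all 3, and 5, 4 and 6 members had an unadjusted p below 0.05.

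The difference between the ASO response of organoids and that of tumors was tested directly, and 0 of 36 members passed by edgeR, against 0% of all genes, with 4 members at an unadjusted p below 0.05 and 0 called by DESeq2. Lamb2 had the smallest p, with a difference of log2 responses, organoids minus tumors, of 0.64 ± 0.22, followed by Itgb4 with 0.99 ± 0.35 and Itga4 with -1.55 ± 0.62, each with an edgeR adjusted p of 1. With the block in each system 0 members passed, against 0.305% of genes, 8 had an unadjusted p below 0.05, and the value for Itgb4 was 1.08 ± 0.24 (adjusted p = 0.0614). With the block and without the 2 libraries that go against their labels 0 members passed, against 0.0805% of genes, 7 had an unadjusted p below 0.05, and the value for Itgb4 was 1.03 ± 0.28 (adjusted p = 0.186).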

How the data were processed

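RNA was extracted with TRIzol and polyA+ libraries were made with TruSeq, per the labels' protocols. The deposited values are raw read counts per gene, and the submitters' processing notes name STAR, HTSeq, CASAVA, FastQC, DESeq2 and build mm9; no version, and no strand setting of the counting, is given there. The 5 closing lines of each file name no gene and were left out. Symbols, exon lengths and coordinates came from GENCODE M21 (GRCm38), and 250-base windows from RefSeq.

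Counts were fitted with edgeR 4.0.16 in R 4.3.3 (TMM scaling, filterByExpr with a minimum of 10 reads and a total of 15, quasi-likelihood F-test, Benjamini-Hochberg threshold 0.05 over all genes) for tumors (17354 genes), organoids (17126) and both together (18695). Each standard error was taken from the fold change and its F value. CPM used TMM over all 26 libraries. The fits were tested on simulated data. No pair of libraries within a group agreed within sampling noise (chi-square per degree of freedom 15.03 to 446.8 over 36 pairs).

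Deviations from the group means correlated at 0.469 to 0.933 between same-numbered organoid libraries, in 24 of 24 pairs above 0.1. Between organoid libraries of different numbers they correlated at -0.763 to 0.800, in 14 of 72 pairs above 0.1. From the data, not the labels, the numbers thus mostly pair the organoids. In tumors 2 of 9 pairs passed 0.1. The members and gene lists were chosen with earlier results of these data known. In each comparison the called members were named, up to 8 in each direction with full statistics, or the 3 smallest p where fewer than 3 were called; other members are given briefly, and 1 member that enters the counts and medians is not reported here by name or value, and of the partner lists up to 4 called genes in each direction. Alternatives were RLE size factors, no low-count filter, DESeq2 1.42.0, the replicate block, fitting the compared groups alone and leaving out each library. Block fits without the 2 libraries that go against their labels, without number 4 or without each organoid library were chosen after seeing the data.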

Additional observations from a re-analysis of the deposited data

Results flagged for a closer look

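Of 180 sets of 4 libraries of one member in one group, 11 held a library far from the other 3. For independent values of one normal distribution about 1 in 20 such sets would be flagged. These sets share libraries and replicate numbers, so that rate need not hold for them. Among them, 4 values came from organoid ASO1 replicate 2, which had 1098 CPM of Lamb3 where the others had 372.9 to 463.7 CPM, 840.4 CPM of Itga3 (others 390 to 414.9 CPM), 402.6 CPM of Itga2 (others 66.72 to 109.6 CPM) and 1568 CPM of Itgb1 (others 963.7 to 1042 CPM). Organoid ASO1 replicate 1 had 115 CPM of Itgb5, below the 161.6 to 169.4 CPM of the others, and organoid ASO1 replicate 4 had 0.6709 CPM of Itgb7, above 0.2738 to 0.3129 CPM.

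Lama1 had 16.95 CPM in organoid scASO replicate 4, against 7.901 to 8.97 CPM in the other scASO libraries. Itgae stood high in 3 libraries, with 3.188 CPM in tumor ASO2 replicate 3 (others 1.705 to 1.874 CPM), 0.4947 CPM in organoid ASO2 replicate 4 (others 0.3388 to 0.3483 CPM) and 0.9082 CPM in Mock replicate 1 (others 0.5178 to 0.5441 CPM). Itgal was low in Mock replicate 2, with 0.1827 CPM against 0.7115 to 0.7863 CPM in the other Mock libraries. At these low levels few reads lie behind a value.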

How the results depend on the processing

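The replicate block moved the counts of called members over Mock, which were 0 without it: 7 members passed for both ASOs and 1 for scASO. With the block and without the 2 libraries that go against their labels these counts were 13 and 7, and with the block and without the libraries numbered 4 the count for both ASOs was 4. Leaving out each organoid library under the block gave 5, 6, 7 or 8 members for both ASOs and 0, 1, 2 or 3 for scASO, against 0 in every such fit without the block. In these block fits 1.48% to 5.07% of all genes passed for both ASOs and 0.0288% to 1.48% for scASO. The shares for the other block fits over Mock are given above. These added fits were chosen after seeing the data, and the cause of the differences was not tested. The block changed no other call. Tumors share only a number, and the block there called 0 members. Itgb3 no longer passed between replicate numbers without number 4 (adjusted p = 0.175). Organoids over tumors kept 33 to 35 called members when each library was left out, Itga1 and Itgb8 being those lost. No result reversed under the alternatives run. Members below 1 CPM rest on few reads.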
